A study of Mus musculus with 24 samples.

Results

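The acute phase and complement genes described here are the 9 genes Orm1, Orm3, Saa1, Saa2, Saa3, Fgg, Il1b, C6 and C8a. They were picked by name from the authors' deposited tables of liver transcripts that differed between diets, so that the values below are those the choice rested on and are given as a description, with no test. All 9 had a row in the C57BL/6J table, with 10 transcripts of the 681 listed there, and 1 of them, C6, had a row in the A/J table, with 1 transcript of 699. A row means an adjusted p-value below 0.05 over all transcripts tested, a mark passed by 3.46% of the transcripts in the C57BL/6J test and 3.39% of those in the A/J test. Together the tables named 862 genes. Of the 455 genes named in C57BL/6J and the 482 named in A/J, 75 had a row in both. Nothing is read from 1 of the 9 members having a row in both.

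Liver RNA came from C57BL/6J and A/J mice, both inbred strains. Control mice ate control diet for 16 weeks, HF mice ate high fat diet for 16 weeks, and Reversal mice were switched to control diet for 8 weeks after 8 weeks on high fat. The diet tag of the Reversal samples names 16 weeks of control diet instead, and the feeding protocol was followed. Each strain and diet had 2 RNA libraries, 12 in all, and no label ties them to separate animals, so that p-values reflect the scatter among libraries that may be only technical replicates. Neither sex nor age is given in the sources used here. The labels name no altered gene in either strain. The tables hold 1 mean per transcript over the libraries and no value per library, so that values by sample and sequencing depth were not analysed here.

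The acute phase response is the change in the proteins that the liver secretes into blood when tissue is injured or infected. Cytokines such as interleukin 1 beta and interleukin 6, made largely by macrophages, act on hepatocytes through the transcription factors NF-kB, STAT3 and C/EBP beta. Serum amyloid A and the orosomucoids are then among the most strongly induced products in mice, and fibrinogen, the precursor of fibrin clots, follows. Complement is a cascade of plasma proteins, mostly of hepatocyte origin, that ends in a pore formed in target membranes by C5b together with C6, C7, C8 and C9.

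The deposited fold change of a transcript, on the log2 scale, was read as a comparison of 2 of the 3 diets, and the tables do not name them. A positive or negative sign is therefore not read as higher or lower on high fat diet. The statistic beside it was read as a likelihood ratio statistic that covers all 3 diets. Where the fold change is small and the statistic is large, the diet outside the pair, called the remaining diet below, stands apart from it. The squared ratio of the fold change to its standard error (SE) was taken off the statistic, and the rest was turned into a distance of the remaining diet from the midpoint of the pair. That distance is an estimate on the log2 scale which assumes 2 libraries a diet and equal spread in each, and it has a size but no direction.

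Of the 9 genes in C57BL/6J, 6 held over 80% of their statistic outside the deposited pair of diets, namely the 3 serum amyloid genes, both orosomucoid genes and Fgg. Among all 455 named genes of that table the share was 39.1%. The complement genes C6 and C8a lay at the other end, with nearly all of the statistic inside the pair, and Il1b lay between. The median share of the statistic outside the pair was 91.8% over the 9 genes and 64.1% over all named genes of the table. A fold change under 1 SE was found in 4 of the 9 and in 20.4% of all named genes, and one over 2 SE in 4 of the 9 and in 61.3%. The genes were chosen with these values known, and nothing is read from these differences.

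Promoters of 5 of the 6 genes that share the first pattern, all but Orm1, are printed here, since Saa1 and Saa2 are near copies of each other and acute phase factors are known to act on this stretch of DNA. They are the 200 bases before the transcription start in the RefSeq promoter table of GRCm38.p6, a different assembly from the mm9 build named in the submitters' processing notes. The table held 8 of the 9 genes, without Orm1. Saa1 is at chr7:46742981-46743180 on the minus strand, Saa2 at chr7:46751633-46751832 on the plus strand and Saa3 at chr7:46715677-46715876 on the minus strand. Orm3 is at chr4:63355958-63356157 and Fgg at chr3:83007524-83007723, both on the plus strand. Capitals mark TTGCNNAA, a form of the C/EBP motif, in the serum amyloid and Orm3 promoters, the kB consensus that NF-kB binds in Saa1, and CTGGGAA, a core of the interleukin 6 response element, in Fgg. The sequences read 5′ to 3′ on the gene's strand.
Saa1: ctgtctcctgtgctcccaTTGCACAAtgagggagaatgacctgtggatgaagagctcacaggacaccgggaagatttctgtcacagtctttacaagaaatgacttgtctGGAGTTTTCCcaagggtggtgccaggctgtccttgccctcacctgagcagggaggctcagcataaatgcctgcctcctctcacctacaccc
Saa2: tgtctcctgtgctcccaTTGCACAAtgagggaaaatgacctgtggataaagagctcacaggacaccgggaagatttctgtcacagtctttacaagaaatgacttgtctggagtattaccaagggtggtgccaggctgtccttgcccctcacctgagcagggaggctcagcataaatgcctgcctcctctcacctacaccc
Saa3: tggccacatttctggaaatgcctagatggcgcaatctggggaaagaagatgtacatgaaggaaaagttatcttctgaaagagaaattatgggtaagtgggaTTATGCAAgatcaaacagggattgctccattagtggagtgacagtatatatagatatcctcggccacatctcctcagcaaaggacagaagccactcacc
Orm3: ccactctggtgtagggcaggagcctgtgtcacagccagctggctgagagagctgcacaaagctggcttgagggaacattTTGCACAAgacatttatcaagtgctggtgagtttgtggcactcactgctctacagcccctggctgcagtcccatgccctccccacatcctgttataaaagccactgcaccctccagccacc
Fgg: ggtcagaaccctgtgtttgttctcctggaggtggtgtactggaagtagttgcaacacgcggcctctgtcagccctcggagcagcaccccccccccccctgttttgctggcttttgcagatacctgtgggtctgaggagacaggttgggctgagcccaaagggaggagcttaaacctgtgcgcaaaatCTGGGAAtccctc

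The Saa1 and Saa2 windows matched at 195 of 199 aligned bases (98.0%). Gaps were not counted there, and Saa2 also holds an extra base between the TTGCNNAA match and the start. TTGCNNAA, searched on both strands, was present in 4 of the 8 promoters, those of Saa1, Saa2, Saa3 and Orm3, and in 7.47% of all 32851 promoters of the same length. In Saa1 it began 182 bases before the start and in Saa2 183 bases before it, while the Saa3 match, on the opposite strand, spanned bases 99 to 92 before the start. The palindromic kB consensus was found in Saa1 alone among the 8, from 91 to 82 bases before the start, against 7.96% of all promoters, and CTGGGAA in Fgg alone, from 13 to 7 bases before the start, against 7.26%. The STAT motif TTCNNNGAA was found in none of the 8 and in 5.49% of all promoters. GTTAAT, which is one arm of the HNF1 motif, was found in C8a alone and in 5.06% of all. TATAAA, an exact form of the TATA box, was found in Il1b and Orm3 and in 9.96% of all. Variant forms were not searched, so promoters without a match are not shown to lack a TATA element. None of these motifs overlapped another in the 8 windows. The motifs were chosen after the sequences had been seen, and a match describes letters, not a bound site.

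The serum amyloid A genes, which encode apolipoproteins of high density lipoprotein that increase in inflammation, differed between C57BL/6J diets. Their fold changes inside the deposited pair were each under 1 SE, which does not show that the pair was alike. Saa1 (NM_009117) had a mean normalised count of 1528 and a log2 fold change of -0.18 ± 0.21 (SE) in the authors' deposited table. Its statistic was 32.6, with an adjusted p of 1.49e-05 from DESeq2 in that table, and 31.9 of it (97.8%) lay outside the pair. The remaining diet was estimated at 1.02 ± 0.18 log2 units from the midpoint, which is 2.02-fold.

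Saa2 (NM_011314) had a mean normalised count of 1039, a fold change of -0.18 ± 0.23 and a statistic that was 29.7 in the authors' deposited table (adjusted p 5.33e-05 from DESeq2). Its remaining diet lay 1.09 ± 0.20 log2 units away, or 2.13-fold. Saa1 and Saa2 thus had distances that differed by less than 1 SE of either. The genes are close copies that share reads in a way the sources used here do not describe, and so the values do not count as separate observations.

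Saa3 (NM_011315), the serum amyloid gene that macrophages and fat cells also express in mice, had the smallest fold change of the 9 genes, -0.04 ± 0.28, with a statistic of 21.8 and an adjusted p of 0.00143 from DESeq2 in the authors' deposited table. All but 0.0208 of that statistic lay outside the pair. At a mean normalised count of 161 its remaining diet was 1.12 ± 0.24 log2 units from the midpoint (2.17-fold). The distances of the 3 serum amyloid genes therefore lay between 1.02 and 1.12, closer to each other than their errors. A distance over 1 log2 unit was found in 48 of the 455 named genes (10.5%) and in 4 of the 9 described here, the fourth being Il1b. Saa4, the constitutively expressed neighbour that lies between Saa3 and Saa1 in the RefSeq gene order, had no row in either table.

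The orosomucoids are lipocalins of plasma, also called alpha-1 acid glycoproteins, that bind drugs and steroids. Orm1 (NM_008768) had the largest statistic of the acute phase members, 52.2, with an adjusted p of 2.21e-09 from DESeq2, and a fold change of 0.20 ± 0.10 in the authors' deposited table. That fold change was the only one of the 6 genes with over 80% outside the pair to exceed 2 SE, at a ratio of 2.07. Its mean normalised count was 16608, and 47.9 of the statistic (91.8%) lay outside the pair. The remaining diet was placed 0.59 ± 0.09 log2 units from the midpoint, or 1.51-fold.

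Orm3 (NM_013623) had nearly the same fold change, 0.22 ± 0.18, at a mean normalised count of 430 in the authors' deposited table. Its distance, 0.56 ± 0.16 log2 units, was likewise near that of Orm1, but its statistic was 13.5 and its adjusted p 0.0373 from DESeq2, the highest among the 9 genes. Orm1 and Orm3 thus had alike estimates with unequal error. Orm2, which follows Orm1 and Orm3 in the RefSeq gene order, had no row in either table. Orm copies share sequence as well, so the split of reads between them is uncertain.

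Fgg (NM_133862), which encodes the gamma chain of fibrinogen, had a mean normalised count of 88693 and a fold change of 0.07 ± 0.11 in the authors' deposited table. With a statistic of 14.4 and an adjusted p of 0.0273 from DESeq2 it stood close to the threshold. The remaining diet was 0.37 ± 0.10 log2 units from the midpoint, or 1.29-fold, the smallest distance of the 6 genes of this pattern. The genes of the other fibrinogen chains, Fga and Fgb, are its neighbours in the RefSeq gene order and had no row in either table, so that their values are unknown here.

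**Figure D1:**
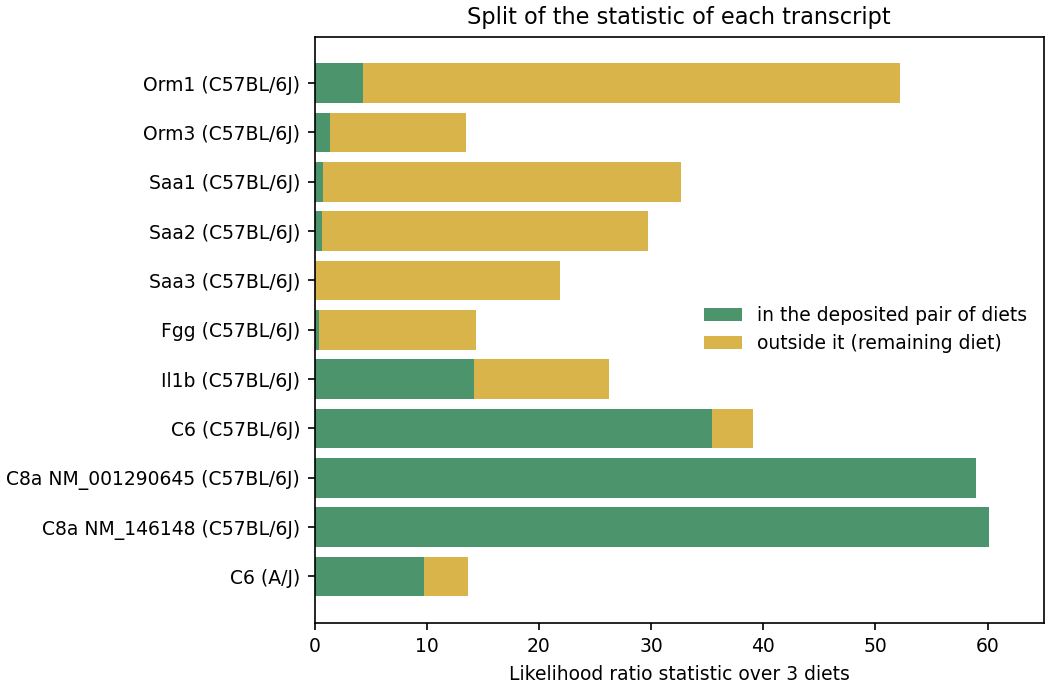
Bars give the likelihood ratio statistic of each transcript over the 3 diets of its strain, split into the part held by the deposited pair of diets (green) and the rest (yellow). The rest makes up nearly all of the bar for Saa1, Saa2, Saa3, Fgg, Orm1 and Orm3, and none of it for both C8a transcripts.

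C8a and C6, the complement members, showed the opposite layout in C57BL/6J. C8a encodes the alpha chain of C8, which inserts into the target membrane, and is more highly expressed in male than in female mouse liver. Its 2 listed transcripts, NM_146148 and NM_001290645, had fold changes of -0.74 ± 0.10 each and statistics that were 60.1 and 58.9 in the authors' deposited table, with adjusted p-values of 6.17e-11 and 1.04e-10 from DESeq2. Their mean normalised counts, 14008 and 13746, rest largely on the same reads. The squared ratios of fold change to SE, 60.6 and 59.4, exceeded the statistics, so that the rest was negative and was set to 0. The remaining diet was thus placed at the midpoint, 0.00 (SE 0.08), with the pair 0.37 log2 units away on either side. The pair itself differed 1.68-fold. A distance set to 0 is the lowest possible value, and its SE is not a range on both sides.

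C6 (NM_016704), the complement protein that binds C5b, had a fold change of -0.92 ± 0.15 in C57BL/6J at a mean normalised count of 6110 in the authors' deposited table (statistic 39.0, adjusted p 8.32e-07 from DESeq2). Of the statistic 3.65 (9.34%) lay outside the pair. The remaining diet was estimated 0.25 ± 0.13 log2 units from the midpoint. That is 0.20 from the nearer diet of the pair and 0.71 from the farther, so the estimate lay between both, as for C8a, but toward 1 of them, by less than 2 SE from the midpoint.

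In A/J liver C6 was the single member with a row. Of all 455 genes named in C57BL/6J, 75 had a row in A/J as well. Its fold change was -0.58 ± 0.19 at a mean normalised count of 3346 in the authors' deposited table, with a statistic of 13.7 and an adjusted p of 0.0346 from DESeq2. Here 3.91 of the statistic (28.5%) lay outside the pair, and the remaining diet, 0.32 ± 0.16 from the midpoint, was 0.03 log2 units from 1 diet of the pair and 0.61 from the other. C6 was negative in both strains. Whether the pair of diets is the same in both tables is not given, the tables were normalised separately, and the difference between strains was not tested. For the other 8 genes the A/J table gives no value, which does not show that they were alike on the 3 diets there.

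Among the 75 genes with rows in both tables, those nearest to C6 in the ratio of fold change to SE and the square root of the rest of the statistic, taken over 2 strains, were Gstp2, Gstp1 and Ppp1r3c. Gstp2 and Gstp1 encode near-identical glutathione transferases, which share reads, and had C57BL/6J fold changes of -0.69 ± 0.17 each, and A/J fold changes of -0.78 ± 0.17 and -0.80 ± 0.17. Ppp1r3c, a subunit that directs a phosphatase to glycogen, had -0.65 ± 0.18 and -0.74 ± 0.21 in the authors' deposited tables. The distances over these 4 values were 2.86, 3.01 and 4.20. Each of the 4 values carries error in both genes compared, so these distances do not show whether the genes differ from C6, which was not tested.

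Il1b (NM_008361), the cytokine that starts much of this response, had the largest fold change of the 9 genes in C57BL/6J, 1.52 ± 0.41 or 2.88-fold, at the lowest mean normalised count, 63.6, in the authors' deposited table (statistic 26.2, adjusted p 0.000223 from DESeq2). The statistic was shared about evenly, with 12.1 (46.0%) outside the pair. The remaining diet lay 1.22 ± 0.35 log2 units from the midpoint, 0.46 beyond the nearer diet and 1.98 from the farther. Il1b thus differed inside the pair, with a fold change of over 3 SE. A step of 0.46 beyond the nearer diet is about as large as the SE of the fold change, so that the remaining diet is not shown to lie outside the range of the pair. With the low count its errors were the widest among the members.

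**Figure D2:**
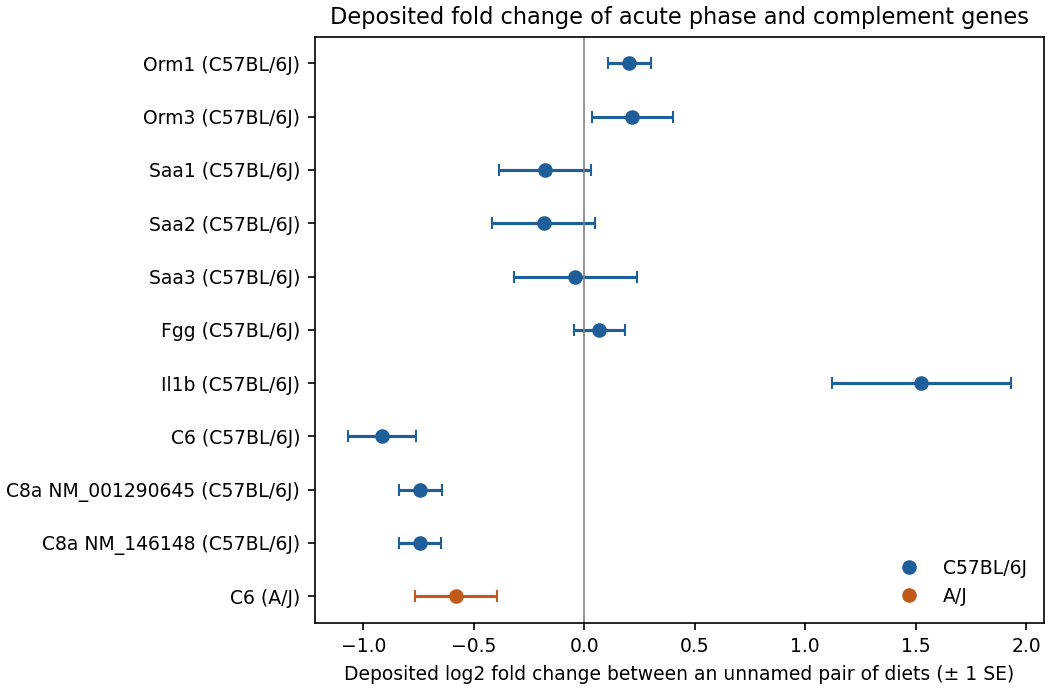
Points are the deposited log2 fold changes between an unnamed pair of diets and bars are 1 SE either side, for each member transcript in C57BL/6J (blue) and A/J (orange). The serum amyloid genes, the orosomucoids and Fgg lie between -0.18 and 0.22, whereas C6 and C8a lie between -0.92 and -0.58 and Il1b at 1.52.

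**Figure D3:**
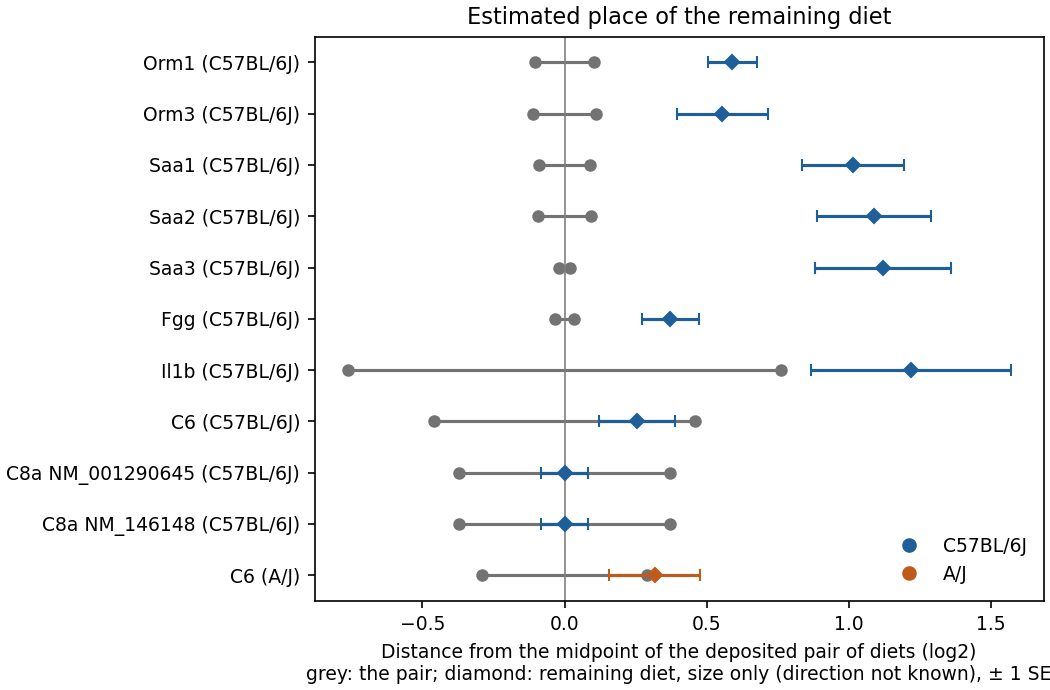
Grey points mark the deposited pair of diets around their midpoint and diamonds mark the estimated distance of the remaining diet with 1 SE either side, all in log2 units; diamonds are drawn to the right since only their size is known. Diamonds lie from 1.02 to 1.12 for the serum amyloid genes, far outside short grey lines, and at 0.00 for C8a.

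Liver tissue yields RNA of several cell types, and fewer cells of a type cannot be told apart from less RNA per cell. Of 13 macrophage markers 1 had a row in C57BL/6J, the haemoglobin scavenger receptor gene Cd163, with a fold change of 0.03 ± 0.24 and a statistic that was 15.8 in the authors' deposited table. Its remaining diet was 0.84 ± 0.21 log2 units from the midpoint. Of 7 adipocyte markers 1 had a row, Cfd, which is also complement factor D, with 0.56 ± 0.41 and a statistic that was 38.4 in the authors' deposited table, and a remaining diet 2.17 ± 0.36 units away. None of the markers of neutrophils and monocytes (14), lymphocytes (10), endothelium (8), stellate cells and fibroblasts (8) or cholangiocytes (6) had a row in C57BL/6J. Markers without a row have no known level here, and the part of other cell types in the values of Il1b and Saa3 was not tested. Of 11 hepatocyte markers 4 had a row in C57BL/6J and 2 had one for A/J. In C57BL/6J the urea cycle genes Ass1 and Cps1 stood at 0.72 ± 0.13 and 0.30 ± 0.11, the cytochrome gene Cyp2e1 at 0.08 ± 0.14 and Apoa1 at -0.44 ± 0.16 in the authors' deposited table. Outside the pair lay 97.5% of the statistic of Cyp2e1, 81.4% of that of Cps1, 40.9% for Apoa1 and 39.7% for Ass1. In A/J Cps1 had -0.23 ± 0.10 with 91.3% outside the pair, and Ass1 -0.40 ± 0.15 with 42.6%. Some hepatocyte markers thus also differed between diets, with fold changes of either sign in C57BL/6J. Whether they moved with the acute phase genes cannot be read without directions, and their part in these values was not tested. The markers were abundant where listed, with mean normalised counts of 212557 for Cyp2e1 and 202218 for Apoa1 in C57BL/6J and 96337 for Cps1 in A/J in the authors' deposited tables.

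The other genes of these pathways were listed with earlier results of the data known. Over all transcripts tested, 3.46% had a row in C57BL/6J and 3.39% in A/J. Those shares count transcripts, not genes. Since the lists were not blind to the values, nothing is read from a list, or the cell type markers above, exceeding these shares. Of 29 positive acute phase genes 9 had a row in C57BL/6J, 6 of them members. A positive fold change was held by 265 of the 455 named genes there, and by all 3 of the other 23 list genes with a row. They were Hamp2, a homologue of the iron hormone hepcidin, at 0.91 ± 0.15, the protease inhibitor gene Serpina3n at 0.21 ± 0.09, and the metalloreductase gene Steap4, named after its value was seen, at 0.14 ± 0.11 in the authors' deposited table. Serpina3n and Steap4 had 82.3% and 87.7% of the statistic outside the pair, while Hamp2 had 28.1% outside it. A share over 80% was held by 39.1% of all named genes of that table. The remaining diets of Serpina3n and Steap4 were 0.39 ± 0.08 and 0.33 ± 0.09 units away. These distances were nearer to that of Fgg, 0.37, than to those of Orm1 and Orm3, 0.59 and 0.56. In A/J 1 of the 29 had a row, the metallothionein gene Mt1, at 0.69 ± 0.20 in the authors' deposited table.

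Of 34 complement genes 4 had a row in C57BL/6J and 3 had one for A/J. In C57BL/6J these were C6, C8a, Cfd and C8b, the last of which encodes the beta chain of C8 and neighbours C8a in the RefSeq gene order. C8b had a fold change of -0.47 ± 0.14 in the authors' deposited table (statistic 16.7, adjusted p 0.0118 from DESeq2), negative like C8a, with 31.3% of the statistic outside the pair. In A/J C6 stood beside C9, the pore-forming unit, at -0.56 ± 0.15, and the ficolin gene Fcna, which acts in the lectin pathway and is expressed by macrophages, at 0.07 ± 0.16 in the authors' deposited table. C6 and C9 thus carried the negative fold changes over 2 SE there. The median fold change of these genes was -0.61 in C57BL/6J, against 0.12 over all named genes of the table, and -0.56 in A/J, against 0.01. These medians include C6, and in C57BL/6J also C8a, which were chosen on their values. The other genes of the list split into 1 positive and 1 negative in each strain. The positive ones, Cfd and Fcna, had fold changes under 2 SE, and the negative ones, C8b and C9, over 2 SE. Of the Fcna statistic of 21.9, 99.2% lay outside the pair. Macrophage markers with a row in A/J were 3 of 13, Marco at 1.09 ± 0.41, Cd163 at 0.41 ± 0.21 and Cd5l at 0.40 ± 0.22 in the authors' deposited table. Of 14 neutrophil and monocyte markers 1 had a row, Ly6c2 at 1.78 ± 0.65. The mean normalised counts of Ly6c2 and Marco were low, 42.6 and 99.8. Outside the pair lay 72.0% of the statistic of Marco, 81.6% for Cd163, 76.3% for Cd5l and 50.7% for Ly6c2. The part of macrophages, neutrophils and monocytes in the value of Fcna was not tested.

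Of 29 coagulation genes 1 had a row in C57BL/6J, which was Fgg, and the A/J table, from the DESeq2 test of the authors, listed 0. The negative acute phase list, of proteins that decline in inflammation, had 2 of 10 genes in C57BL/6J. The corticosteroid-binding globulin gene Serpina6 stood at 0.56 ± 0.17 and the apolipoprotein gene Apoa1 at -0.44 ± 0.16 in the authors' deposited table, so that their signs were split. In A/J Serpina6 alone had a row, at 0.11 ± 0.11 in the authors' deposited table.

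Upstream of these genes, 3 of 38 genes of interleukin 1, interleukin 6 and NF-kB signalling had a row in each strain. In C57BL/6J these were Il1b, the interleukin 6 receptor gene Il6ra at -0.49 ± 0.16 and the AP-1 gene Junb at 0.11 ± 0.20 in the authors' deposited table. For A/J they were Junb at -0.22 ± 0.17, the NF-kB regulator gene Nfkbiz at -0.34 ± 0.21 and the leukaemia inhibitory factor receptor gene Lifr at -0.42 ± 0.17 in the authors' deposited table. Il6 and Stat3 had no row in either table.

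Of 16 liver transcription factor genes 4 had a row in each strain, none of them in both tables, where 75 of the 455 and 482 named genes were shared. In C57BL/6J Cebpb, the gene of C/EBP beta, stood at 0.90 ± 0.18 with nothing of its statistic of 26.1 outside the pair, and Foxa2 at 0.83 ± 0.18 with 2.27% outside it in the authors' deposited table. Hnf4a was at -0.35 ± 0.10 and Foxa3 at -0.42 ± 0.20 in the authors' deposited table. Cebpb thus had the layout of C8a, with the opposite sign. A relation of Cebpb to C8a or to the serum amyloid genes was not tested. In A/J the 4 were Stat5a, Stat5b, Cebpa and Cux2, with Cebpa at -0.33 ± 0.10 and Stat5a at 0.00 ± 0.13 with a statistic that was 38.6 in the authors' deposited table.

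Glucocorticoid-responsive genes had 4 of 16 with a row in C57BL/6J, and 3 did in A/J, all with positive fold changes. Of all named genes, 265 of 455 in C57BL/6J and 248 of 482 in A/J were positive, and nothing is read from these signs. Besides Orm1, a chosen member, the genes of this list with a row in C57BL/6J were Errfi1, Tsc22d3 and Pck1. Errfi1, an EGF receptor inhibitor gene, had the largest statistic of the list, 85.3, at 1.73 ± 0.19 in the authors' deposited table, with nothing outside the pair. Pck1, a gene of glucose synthesis, had 0.53 ± 0.19 with 41.7% outside it, and Tsc22d3, the glucocorticoid-induced leucine zipper gene, had 0.32 ± 0.20 with 84.1% outside it. For A/J Pck1, Mt1 and Dusp1 had 0.95 ± 0.17, 0.69 ± 0.20 and 0.79 ± 0.31 in the authors' deposited table.

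**Figure D4:**
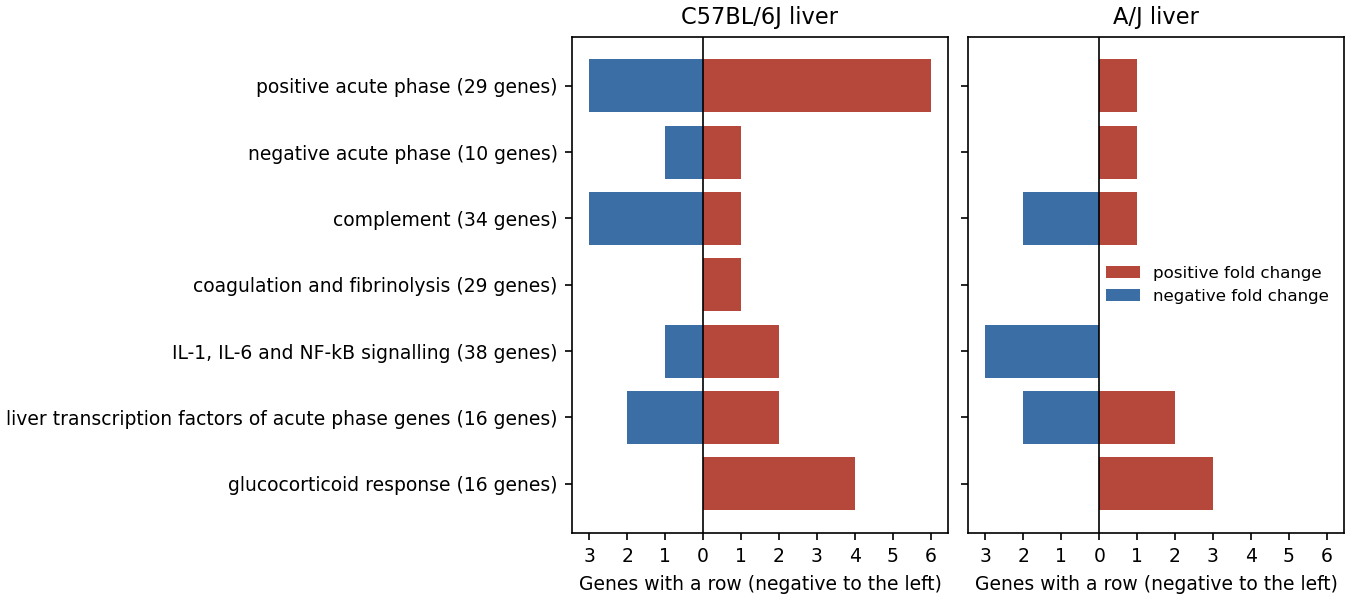
Bars count the genes of each list that had a row in the authors' deposited table of C57BL/6J (left panel) or A/J (right panel), to the right for a positive and to the left for a negative fold change between an unnamed pair of diets, with list sizes in brackets. Members are included, and the positive acute phase list has 9 genes with a row in the left panel and 1 in the right.

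The transcripts nearest to the threshold from inside were Orm3 and Fgg in C57BL/6J and C6 in A/J, at adjusted p-values of 0.0373, 0.0273 and 0.0346 from DESeq2 in the authors' deposited tables, which end at 0.0496 and 0.0498. Values beyond the threshold were not analysed here.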

How the data were processed

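RNA-seq of mouse liver was used, 12 libraries of 2 strains and 3 diets. Bowtie2, TopHat, DESeq2 and mm9 are named in the submitters' processing notes, with no version and no role. Per RefSeq transcript, the authors deposited columns named as in DESeq2 results. They hold a mean of normalised counts (a signal averaged over libraries), a log2 fold change with its SE, a statistic (the deposited score), and a p-value with its adjusted p-value. The headers do not name the test. Each deposited p-value equalled the chi-square tail with 2 degrees of freedom at the statistic (largest relative difference 8e-13). It was therefore read as a likelihood ratio statistic over 3 diets. From the smallest p-value and its adjusted value, 19658 transcripts were tested in C57BL/6J and 20591 in A/J. Symbols came from RefSeq (GRCm38.p6, names only) and matched 675 of 681 and 690 of 699 transcripts. A gene was represented by its transcript with the smallest p-value.

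The rest of the statistic is the statistic minus the squared ratio of fold change to SE, set to 0 where negative (36 and 28 transcripts). The remaining diet's distance is the square root of 0.75 times the rest, times the SE. Its SE is the square root of 0.75 times the SE of the fold change. The distance was tried on simulated data, which held no true distances as small as the estimates for C8a, C6 and Fgg. Small estimates were therefore not checked. Python 3.11.15, pandas 2.3.3 and SciPy 1.17.1 were used.

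Members and lists were chosen with earlier results of these data known. All members are named, and of each list up to 6 genes by smallest adjusted p. For a gene in both tables, the 3 nearest genes are named. Some genes of the lists are not reported here. The designs planned per library were not run, since the tables hold no such values. The 6 peak lists are in mm9, for which no gene positions were at hand, and were not used here. Alternatives were stricter thresholds, another transcript per gene and a filter on mean level.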

Additional observations from a re-analysis of the deposited data

How the results depend on the processing

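Of the 9 C57BL/6J genes, counted by 10 transcripts, 8 transcripts passed an adjusted p threshold of 0.01 and 7 passed 0.001, while 6 lay at or above the median mean level of the table. The A/J count of 1 fell to 0 at 0.01 and to 0 at 0.001, and with it the count of members in both strains, from 1 to 0. Other pathway genes with a row fell from 16 to 8 in C57BL/6J and from 13 to 7 in A/J at 0.01. Fold changes of 4 C57BL/6J members exceeded 2 SE, 5 exceeded 1 SE and 3 exceeded 3 SE. The choice of transcript changed no fold change of a member, since C8a alone had 2 transcripts. Leaving out each replicate was not run, because the tables hold no value per library. No paired analysis was possible because the tables hold no value per library. Among the members, low counts limit Il1b most.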
